A study of Mus musculus with 2 samples.

Results

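Deep hepatocytes with a low share of Nras transcripts were compared with hepatocytes of the same livers in which Nras stayed at its baseline. A cell barcode was taken as a deep hepatocyte when it held at least 10000 unique transcript molecules (UMIs) of genes, under 20% mitochondrial UMIs, at least 1% of UMIs from Alb, Apoa1, Apoa2, Ttr and Fgb together, and under 0.5% from H2-Aa, H2-Ab1, H2-Eb1 and Cd74 together. The cells were then chosen by their Nras level, the Nras UMIs divided by the gene UMIs of the cell and scaled to CPM, the usual library-size scaling. Of 13151 barcodes, 2235 passed these limits. Of these, 462 cells were in the low group (150 to under 800 Nras CPM), 1409 in the baseline group (under 150 CPM) and 364 held 800 CPM or more. The last group was used as a reference point. Nras defined the groups and is given here only as a description, with no test, and mVenus was left out.

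The cells came from the livers of 3 female BL6 mice injected at 6 to 8 weeks of age by hydrodynamic tail-vein injection (HDTV), which forces plasmid into some hepatocytes with a large, fast bolus. A Sleeping Beauty transposon with the strong CAGGS promoter carried NRAS(G12V) and the fluorescent protein mVenus in 2 mice, and NRAS(G12V/D38A) and mVenus in the other mouse. All mice also received the transposase plasmid, and on day 6 the livers were dissociated, each labelled with its own antibody hashtag, sorted for live mVenus-positive cells, and pooled for 10x Genomics 3′ single-cell RNA sequencing. Baseline cells are therefore sorted cells with little Nras RNA and not uninjected hepatocytes. D38A alters the loop that binds RAS effectors, and the study uses NRAS(G12V/D38A) as its non-oncogenic control. The G12V change itself was in the transposon of every mouse. Hashtag 2 is an NRAS(G12V) mouse in both sources of the pairing, but the table deposited with the data gives hashtag 1 to the D38A mouse and the study's methods give it hashtag 3. The comparison of low with baseline cells is made within a mouse and is computed without that pairing, and mice are named by hashtag below. The fit gives 1 difference shared by hashtags 1 and 2, so what it describes does depend on the pairing. By the study's methods both are NRAS(G12V) mice. By the deposited table hashtag 1 is the mouse with the non-oncogenic NRAS(G12V/D38A) control, and only 1 mouse of the fit carries NRAS(G12V) without D38A.

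RAS proteins are membrane switches that pass growth factor signals to the RAF, MEK and ERK kinases. ERK enters the nucleus and drives transcription of its own feedback inhibitors, of EGF receptor ligands and of AP-1 factors, and sustained strong RAS signalling can halt the cell cycle in the state called oncogene-induced senescence. Hepatocytes make most plasma proteins, clear ammonia through the urea cycle, and metabolise lipids and drugs, with tasks divided between the portal and the central ends of the liver lobule.

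The mouse is the replicate. Hashtag 1 gave 101 baseline, 38 low and 51 cells with 800 CPM or more. Hashtag 2 gave 686, 231 and 190 cells. Hashtag 3 gave 16, 4 and 3 cells, too few for the minimum of 10 cells per sum, and was kept out of the fit. A further 567 baseline and 178 low cells had no assigned hashtag and 39 and 11 were hashtag doublets. UMIs were summed per mouse and group over the 2 mice and tested with edgeR's quasi-likelihood test, with the mouse as a block, all 3 groups in the fit and 2 residual degrees of freedom. P-values were adjusted over all 10988 genes tested (Benjamini-Hochberg), and fold changes are log2 values of low over baseline with their standard error (SE). With hashtags called by HTODemux, the method used throughout, hashtag 2 carries most of the counts. The cells of each mouse depend on that call. When a cell was instead given to a mouse if 80% of its hashtag counts came from 1 tag, hashtag 1 held 294 baseline and 101 low cells and hashtag 2 held 219 and 78. With that rule 576 genes were called, of which 477 were shared with the 749 called below, so every value given for a single mouse rests on the hashtag call.

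The groups differed in more than Nras. The median Nras level was 40.7 CPM in baseline, 270.5 CPM in low cells and 2082 CPM in cells with 800 CPM or more, and 389 baseline cells had no Nras UMI. At the lower limit the nearest cells held 149.3 CPM (14 of 93790 UMIs) and 150 CPM (9 of 59987), and 129 of the low cells lay between 150 and 200 CPM. At the upper limit they held 782.8 and 801.0 CPM. The median depth was 35460 UMIs per cell in baseline and 43410 in low cells. Within hashtag 1 it was 32670 and 53440, and within hashtag 2 it was 41430 and 48880. Mitochondrial shares were close, with medians of 8.51% and 8.68%. Reads of the transgene and of the mouse gene fall together in the Nras row and cannot be told apart.

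Alb and Ttr were among the genes that chose the cells, so their levels cannot test the label of hepatocytes and are given as description. A list of 12 other hepatocyte markers summed to 40180 CPM in pooled baseline and 35650 in pooled low cells, with no member at 0. Of these 12, 5 were called lower in low cells and 0 higher, with a median of -0.38. Alb, the main plasma albumin, stood at 31910 CPM in baseline and 29070 in low cells of hashtag 1, and at 38100 and 29400 CPM (hashtag 2). Ttr, which carries thyroid hormone, stood at 22240 and 18620 CPM (hashtag 1) and at 26620 and 18340 (hashtag 2). Markers of other liver cells were few. The endothelial list summed to 42.8 CPM in pooled baseline and 32.7 in pooled low cells, with no member at 0, but to 166.8 and 39.6 CPM (hashtag 1) against 20.3 and 23.6 in hashtag 2. The macrophage list summed to 6.86 and 6.39 CPM, with 2 and 3 of 12 members at 0. The T and NK, B, neutrophil and red cell lists each summed to under 5 CPM in every pooled group. None of the endothelial, macrophage, T and NK or B cell markers tested was called in low against baseline, whereas 1 of 3 stellate markers (Ecm1) and 2 of 7 cholangiocyte markers (Spp1 and Krt19) were called higher. The dendritic list summed to 363.8 and 457.8 CPM, nearly all of it Cst3, which many cell types express. The stellate list summed to 119.5 and 225.9 CPM, of which Ecm1 held 63.7 and 152.6 CPM (hashtag 1) and 92.4 and 223.4 CPM (hashtag 2). The part of these cells in the results was measured by leaving out cells with 0.2% or more of their UMIs in the markers of other types, which left 704 calls, of which 681 were shared with the full set.

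Low Nras cells already differed from baseline in many genes. Of 10988 genes tested, 749 were called at an edgeR adjusted p under 0.05 (6.82%), of which 335 were higher (3.05%) and 414 lower (3.77%) in low cells. The median size was 0.72 among the higher and 0.69 among the lower genes on the log2 scale, and 113 rose and 76 fell by at least 2-fold. Plaur, Cd44, 4 of 8 EGF receptor ligands and receptors and 15 of 27 cytoskeleton, annexin and S100 genes rose. Of the urea cycle and periportal genes 16 of 20 fell, as did 13 of 24 cytochrome P450 genes, 10 of 18 apolipoproteins and lipid export genes and 15 of 35 complement and coagulation genes. Of the called genes, 741 went the same way in hashtag 1 and 749 in hashtag 2, which the fit used. In the cells with no assigned hashtag, which the fit did not use and which may hold cells of any mouse, 735 of 749 (98.1%) went the same way, beside 67.2% of all genes tested.

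**Figure D1:**
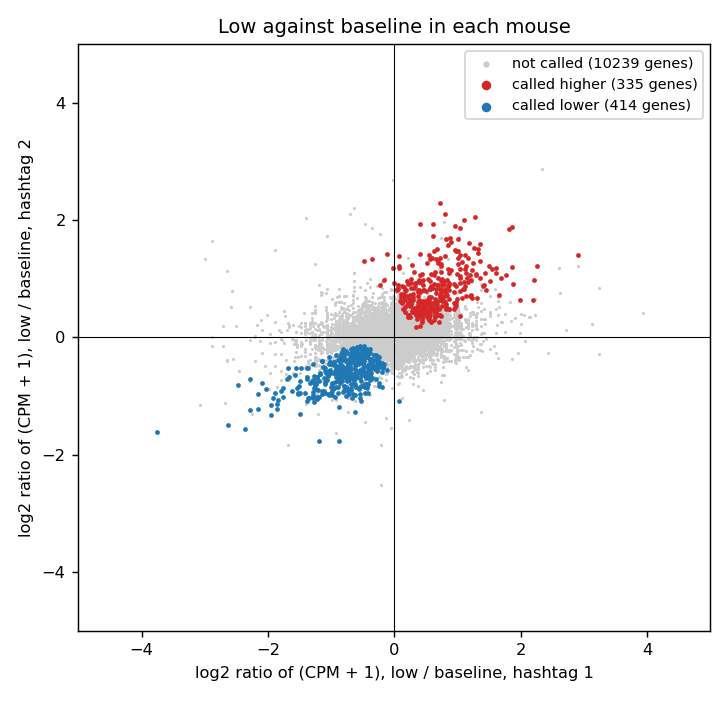
Each point is 1 of the 10988 genes tested, with the log2 ratio of (CPM + 1) in low over baseline cells of hashtag 1 on the x axis and of hashtag 2 on the y axis. The 335 genes called higher sit mainly in the upper right and the 414 called lower in the lower left, and 741 of the 749 share their direction with hashtag 1.

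Fewer genes were called at matched depth. When baseline cells were matched one to one to low cells in UMIs within each mouse, 137 of 10876 genes tested were called. Of these, 66 were higher and 71 lower, the background for every matched-depth list count below. The 137 shared 129 with the 749, and the median size of the original calls went from 0.70 to 0.51. Matching kept 38 of 101 baseline cells of hashtag 1 and 231 of 686 of hashtag 2, so that fit also held fewer counts. All 748 of the calls that could be tested there kept their direction. When the 4 low cells of hashtag 3 were admitted, 423 genes were called by edgeR with all 3 mice. Leaving out hashtag 1 or hashtag 2 from that fit, alternatives added after seeing the data, gave 30 and 6 calls, of which 17 and 0 were shared with the 749. There 698 of 741 and 620 of 689 of the original calls that could be tested kept their direction.

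The 12 largest rises among genes with at least 20 CPM in low or baseline cells ran from 1.28 to 1.89 on the log2 scale. Plaur, the receptor of the plasminogen activator urokinase, was at 8.31 CPM in baseline and 19.01 CPM in low cells of hashtag 1, and at 8.83 and 38.3 CPM (hashtag 2). Both low values lay above both baseline values, and the cells with 800 CPM or more were higher again at 72.2 and 99.6 CPM. The fold change was 1.89 ± 0.16 (SE, edgeR adjusted p = 3.12e-09).

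Il1rn, the natural antagonist of the interleukin-1 receptor, went from 19.7 to 46.0 CPM (hashtag 1) and from 17.8 to 56.2 CPM (hashtag 2), a fold change of 1.49 ± 0.14 (edgeR adjusted p = 3.42e-09). Cd44, the hyaluronan receptor, went from 16.4 to 36.4 CPM and from 17.2 to 47.0 CPM (1.33 ± 0.14, edgeR adjusted p = 2.77e-08). Both genes showed little spread between the mice at baseline, and no baseline sum reached a low sum.

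Igfbp3, which binds insulin-like growth factors, rose from 111.4 to 230.8 CPM (hashtag 1) and from 73.5 to 271.7 CPM (hashtag 2), a fold change of 1.49 ± 0.17 (edgeR adjusted p = 0.00155). Sprr1a, a precursor of the cornified envelope of squamous epithelium, rose from 136.1 to 275.7 CPM and from 102.9 to 331.8 CPM (1.37 ± 0.12, edgeR adjusted p = 1.36e-06). Hmga2, a chromatin protein of fetal tissues, rose from 59.9 to 106.2 CPM and from 41.2 to 134.1 CPM (1.32 ± 0.24, edgeR adjusted p = 0.0439). In each of these genes the rise was larger in hashtag 2, and with depth matched the fold was 1.00 for Igfbp3, 0.95 for Sprr1a and 0.83 for Hmga2, none of them called.

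Wincr1, a long non-coding RNA gene that lies 221685 bases from Cdkn2b on chromosome 4 (89050308 to 89084614, plus strand, mm10), rose from 24.7 to 61.3 CPM (hashtag 1) and from 14.7 to 64.4 CPM (hashtag 2), a fold change of 1.82 ± 0.15 (edgeR adjusted p = 2.77e-08). Cdkn2b, the CDK4 and CDK6 inhibitor p15, rose from 77.3 to 173.8 CPM and from 78.4 to 201.4 CPM (1.25 ± 0.11, edgeR adjusted p = 1.90e-09). Wincr1 was 1.26 and not called with depth matched.

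The other named rises were Cxcl17, Ankrd1, Crip1, Sema3e and Fhl2, with fold changes between 1.28 and 1.49 and edgeR adjusted p between 8.82e-09 and 1.05e-05. Ankrd1, a target of the YAP coactivator, went from 11.6 to 30.6 CPM (hashtag 1) and from 13.8 to 41.2 CPM (hashtag 2). Fhl2, a LIM domain coactivator, differed least in hashtag 1, at 9.70 and 13.2 CPM, against 8.04 and 23.3 CPM (hashtag 2).

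**Figure D2:**
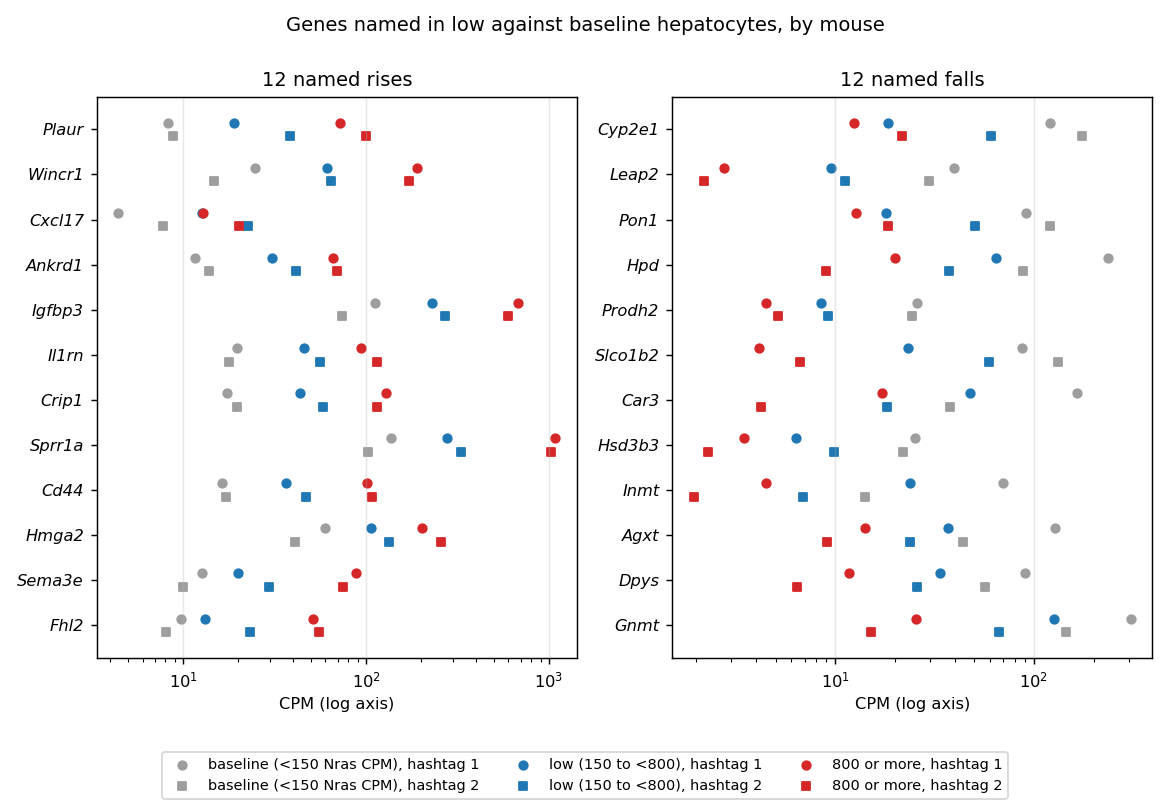
CPM on a log axis for the 12 named rises (left) and the 12 named falls (right), with 1 point per mouse and Nras group. Low cells (blue) lie between baseline (grey) and cells with 800 CPM or more (red) in both mice, except for Cxcl17 in hashtag 2, where low cells are highest.

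The largest falls were in metabolic and secreted products of hepatocytes. Cyp2e1, a cytochrome P450 of pericentral hepatocytes that oxidises ethanol, went from 120.0 CPM in baseline to 18.5 CPM in low cells of hashtag 1 and from 174.4 to 61.0 CPM (hashtag 2). Both mice fell well clear of their own baseline, and hashtag 1 fell further. The fold change was -1.87 ± 0.22 (SE, edgeR adjusted p = 0.00261), and with depth matched it was -1.04 and not called.

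Hpd, an enzyme of tyrosine breakdown, fell from 236.4 to 64.4 CPM (hashtag 1) and from 88.1 to 37.3 CPM (hashtag 2), a fold change of -1.53 ± 0.12 (edgeR adjusted p = 1.94e-09). Pon1, the paraoxonase carried by high-density lipoprotein, fell from 91.4 to 18.0 CPM and from 120.3 to 50.5 CPM (-1.57 ± 0.18, edgeR adjusted p = 3.43e-04). Slco1b2, an uptake transporter for bile acids and drugs, fell from 87.3 to 23.2 CPM and from 131.9 to 59.3 CPM (-1.40 ± 0.13, edgeR adjusted p = 3.01e-08). For Hpd the low sum of hashtag 1 was not far below the baseline sum of hashtag 2, so the fall shows within each mouse and less across them.

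Leap2, a small secreted peptide that opposes ghrelin, fell from 39.6 to 9.51 CPM and from 29.7 to 11.2 CPM (-1.60 ± 0.17, edgeR adjusted p = 3.50e-08). Prodh2, Agxt, Dpys, Gnmt, Inmt and Car3 are further enzymes of amino acid, pyrimidine, methyl group and carbon dioxide handling, and each fell, by 1.21 to 1.49 on the log2 scale. Car3 and Inmt started far apart in the 2 mice, at 164.0 and 38.0 CPM and at 70.1 and 14.2 CPM in baseline. Hsd3b3 was also among the 12, but it has near-identical copies whose reads the counting can split, so its fall of 1.36 is uncertain. Car3, Inmt and Gnmt fell by 0.53, 0.54 and 0.54 with depth matched and were not called there.

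Genes just downstream of ERK rose in part. Of 19 tested genes of ERK feedback and output, 7 rose and 0 fell, with a median fold of 0.50 beside 0.00 for all genes tested. Over all genes tested, 3.05% were called higher and 3.77% lower, the shares beside which every list count below stands. Ccnd1, the cyclin that starts the G1 phase, rose from 123.3 to 215.5 CPM (hashtag 1) and from 113.2 to 201.9 CPM (hashtag 2), a fold change of 0.80 ± 0.10 (edgeR adjusted p = 1.46e-06). Etv4 and Fosl1, ERK-driven transcription factors, rose by 1.44 and 1.81 from levels under 4 CPM. Epha2, an ephrin receptor, rose by 0.74, while Dusp6, an ERK phosphatase and classic feedback gene, was at 64.0 and 81.9 CPM (hashtag 1) and at 48.3 and 62.4 CPM (hashtag 2) and did not pass (0.34 ± 0.12, edgeR adjusted p = 0.0921). With depth matched, 3 of the 19 were called higher.

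Among 8 tested EGF receptor ligands and receptors, 4 rose and 0 fell, with a median of 0.77. With depth matched, 2 were called higher and the median was 0.50. Hbegf, the heparin-binding ligand, rose from 34.9 to 66.0 CPM (hashtag 1) and from 47.1 to 104.8 CPM (hashtag 2), a fold change of 1.04 ± 0.16 (edgeR adjusted p = 0.00115). Btc, betacellulin, rose from 14.96 to 28.0 CPM and from 15.9 to 35.1 CPM (1.04 ± 0.14, edgeR adjusted p = 2.38e-06). Tgfa and Ereg, also ligands, rose by 0.50 and 1.22. The receptor Egfr was at 50.4 and 50.2 CPM (hashtag 1) and at 39.4 and 45.0 CPM (hashtag 2) and was not called, nor was its inhibitor Errfi1.

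Of 13 tested AP-1 and immediate early genes, only Fosl1 was called (1 higher, 0 lower), with a median of 0.28. Fos, Jun, Junb and Jund, the abundant members, had fold changes of 0.10, 0.08, 0.21 and 0.19. Jun stood at 567.8 and 747.3 CPM (hashtag 1) and at 731.0 and 663.6 CPM (hashtag 2), so the mice differed in sign.

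AP-1 binds the heptamer TGANTCA. In windows of 300 bases around RefSeq gene starts (GRCm38.p6, 250 bases before to 50 after), it was present on either strand in 39 of 349 windows of genes called higher (11.2%), beside 7.55% of 424 windows of genes called lower, 5.25% of windows of all genes tested and 7.81% of all windows. These shares are a description, since a match is not a bound site. Stretches before 2 of the largest rises and 1 of the largest falls are shown, with the heptamer in capitals and up to 30 bases on each side, on the strand of the gene, to show that the motif was found on both sides of the comparison.
Plaur, chr7:24462384-24462450, plus strand: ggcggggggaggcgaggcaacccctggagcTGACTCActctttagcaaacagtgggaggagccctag
Il1rn, chr2:24336689-24336755, plus strand: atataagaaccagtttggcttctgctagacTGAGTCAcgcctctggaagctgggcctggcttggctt
Hpd, chr5:123182826-123182892, minus strand: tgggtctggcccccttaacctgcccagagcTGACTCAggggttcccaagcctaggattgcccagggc

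The heptamer begins 69 bases before the start of Plaur, 141 before that of Il1rn and 139 before that of Hpd. The window of Sprr1a held it at 2 places, 146 and 116 bases before the start. The motif of HNF4A, a hepatocyte transcription factor, searched as CAAAGTCCA on both strands, was in 1.15% of windows of higher genes, 2.59% of windows of lower genes and 0.544% of windows of all genes tested. The cyclic AMP response element TGACGTCA was in 2.01%, 0.236% and 3.13%. In windows of higher and lower genes these shares rest on few matches, 4 and 11 windows for HNF4A and 7 and 1 for the response element. A motif of HNF1 was also searched and was in 0 windows of higher and 1 of lower genes.

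Of 16 tested genes tied to senescence and the cell cycle arrest that goes with it, 6 rose and 1 fell, with a median of 0.37. With depth matched, 1 was called higher and 0 lower (median 0.35), and DESeq2 called 2 higher and 0 lower. Beside Cdkn2b and Hmga2, Hmga1 (another chromatin protein), Plk2, Mdm2 (the negative regulator of p53) and Cdkn1a (the CDK inhibitor p21) rose, the last from 77.3 to 113.0 CPM (hashtag 1) and from 91.1 to 114.6 CPM (hashtag 2), a fold change of 0.39 ± 0.11 (edgeR adjusted p = 0.0300). Cdkn2c, another CDK inhibitor, fell from 36.6 to 30.1 CPM and from 32.6 to 21.8 CPM. In the cell cycle list 2 rose and 3 fell of 24 tested, beside 3.05% and 3.77% of all genes, with a median of -0.22. Ccnd1 and Cdk6, its kinase partner, rose, and Birc5, Tk1 and Ccnb2, which peak in S phase and mitosis, fell from between 3 and 15 CPM.

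Secreted chemokines and cytokines are signals of the senescent secretome. Of 17 tested, 1 rose and 0 fell, beside 3.05% of all genes called higher, with a median of 0.63. With depth matched, 0 were called and the median was 0.52. Cxcl16, a chemokine for T cells, rose from 22.2 to 43.3 CPM (hashtag 1) and from 13.7 to 21.0 CPM (hashtag 2), a fold change of 0.71 ± 0.18 (edgeR adjusted p = 0.0214). Ccl2, which attracts monocytes, was at 68.2 and 122.0 CPM (hashtag 1) and at 49.1 and 145.9 CPM (hashtag 2), higher in low cells of both mice but not called (1.27 ± 0.41, edgeR adjusted p = 0.382). Cxcl9 and Cxcl10, which interferon induces, were lower in low cells of hashtag 1 and higher in those of hashtag 2, and were not called. Of 26 interferon response genes 0 were called, with a median of -0.02, and likewise 0 of 19 genes of MHC class I presentation.

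With depth matched, 1 of 11 proteases and matrix genes tested was called higher. In the main fit 3 rose, beside 3.05% of all genes, and 0 fell, with a median of 0.17. They were Plaur, Plat (tissue plasminogen activator), from 8.87 to 30.6 CPM (hashtag 1) and from 13.1 to 27.6 CPM (hashtag 2), and Timp1, an inhibitor of metalloproteases, from 11.4 to 17.4 CPM and from 10.1 to 17.0 CPM.

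The cytoskeleton, annexin and S100 list gave the most rises of any list: 15 of 27 tested genes rose and 0 fell, with a median of 0.59. Anxa2, a membrane-binding annexin, rose from 258.0 to 460.0 CPM (hashtag 1) and from 225.9 to 443.9 CPM (hashtag 2), a fold change of 0.88 ± 0.09 (edgeR adjusted p = 2.56e-08). Krt18, which forms the keratin filaments of hepatocytes together with Krt8, rose from 962.6 to 1599 CPM and from 1034 to 1764 CPM (0.73 ± 0.08, edgeR adjusted p = 5.17e-08). In both genes the lower of the 2 low sums lay well above the higher of the baseline sums.

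S100a6, a calcium-binding protein, was the most abundant riser of this list in low cells, from 1331 to 2200 CPM (hashtag 1) and from 1182 to 3021 CPM (hashtag 2), a fold change of 1.03 ± 0.13 (edgeR adjusted p = 0.00200). Krt8, Anxa5, S100a11, Anxa3, Lgals3, Tpm1, Tpm4, Tuba1a, Ezr, Tmsb10, S100a10 and Actb were the other 12, with fold changes from 0.32 to 1.70. With depth matched, 6 of the 27 were called higher and the median was 0.50.

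The next list holds genes of bile duct cells and progenitors, some of which were well expressed in baseline cells too. Of 12 tested, 5 rose and 0 fell, with a median of 0.43, and 1 was called higher with depth matched. Spp1, osteopontin, held by far the largest share of transcripts among them and rose from 3643 to 7345 CPM (hashtag 1) and from 2317 to 6458 CPM (hashtag 2), a fold change of 1.22 ± 0.10 (edgeR adjusted p = 2.38e-06). Jag1, a Notch ligand, rose from 12.8 to 38.0 CPM and from 10.3 to 21.0 CPM (1.16 ± 0.17, edgeR adjusted p = 3.31e-05). Sox4 and Cd24a rose by 0.43 each, and Sox9, the duct transcription factor, was at 69.8 and 96.7 CPM (hashtag 1) and at 73.5 and 97.7 CPM (hashtag 2) and was not called (0.41 ± 0.28, edgeR adjusted p = 0.649). The whole cholangiocyte marker list summed to 3303 CPM in pooled baseline and 7918 in pooled low cells, most of it Spp1. Epcam, a defining duct marker, stood at 0.28 and 6.87 CPM (hashtag 1) and at 0.38 and 1.32 CPM (hashtag 2).

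Of 13 hepatoblast and oncofetal genes tested, 3 rose and 0 fell, with a median of 0.09, and 1 was called higher with depth matched. Afp, the fetal albumin, rose from 174.8 to 262.0 CPM (hashtag 1) and from 207.4 to 290.4 CPM (hashtag 2), a fold change of 0.50 ± 0.11 (edgeR adjusted p = 0.00164), and the cells with 800 CPM or more were not above this, at 252.7 and 230.1 CPM. Cdh17, a cadherin of fetal liver and gut, rose by 0.79 and went on to rise, from 179.6 and 184.7 CPM in low cells to 297.6 and 306.1 CPM. H19, the imprinted fetal RNA, was at 161.3 and 49.1 CPM (hashtag 1) and at 93.6 and 25.6 CPM (hashtag 2), lower in low cells of both mice but not called (edgeR adjusted p = 0.630).

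Of 9 squamous envelope genes tested, 5 rose and 0 fell, with a median of 1.58, and 2 were called higher with depth matched. Besides Sprr1a, they were Krt20, Krt23, Ivl and Emp1, each under 4 CPM in both baseline sums. Ivl, involucrin, rose from 2.49 to 4.75 CPM (hashtag 1) and from 2.89 to 18.0 CPM (hashtag 2), a fold change of 2.39 ± 0.28 (edgeR adjusted p = 1.96e-04). Of 18 genes listed, 9 had too few counts to test. Beside 3.05% of all genes called higher and 3.77% lower, 2 of 14 YAP targets tested rose and 1 fell. Of 16 ectopic hormones and secreted signals, 2 rose and 0 fell. Gdf15, the most abundant of the last, was at 793.3 and 1126 CPM (hashtag 1) and at 1208 and 1255 CPM (hashtag 2) and was not called.

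Hepatocyte transcription factors gave fewer calls. Of 22 tested, 5 fell and 0 rose, with a median of -0.34. Cebpa, a factor that holds hepatocytes in their differentiated state, fell from 133.0 to 94.5 CPM (hashtag 1) and from 156.5 to 120.8 CPM (hashtag 2), a fold change of -0.45 ± 0.11 (edgeR adjusted p = 0.00499). Creb3l3, Onecut1, Ppara and Nr1h4 (the bile acid receptor) also fell, by 0.48 to 0.73. With depth matched, 0 of the 22 were called.

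The urea cycle and periportal list had the largest share of calls. Of 20 tested, 16 fell and 0 rose, beside 3.77% of all genes called lower, with a median of -0.70. Otc, the urea cycle enzyme that makes citrulline, fell from 240.5 to 102.5 CPM (hashtag 1) and from 147.6 to 72.5 CPM (hashtag 2), a fold change of -1.13 ± 0.11 (edgeR adjusted p = 2.56e-08). Cps1, which fixes ammonia, fell from 163.2 to 91.4 CPM and from 175.3 to 104.4 CPM (-0.80 ± 0.15, edgeR adjusted p = 0.00356). Arg1 and Ass1, further enzymes of the cycle, fell by 0.84 and 0.76. With depth matched the median was -0.56 and 1 of the 20 was called lower.

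Genes of the opposite, central end of the lobule fell in part. Of 15 tested pericentral targets of Wnt signalling, 6 fell and 0 rose, with a median of -0.84. With depth matched, 2 were called lower and the median was -0.37, and among cells of at least 20000 UMIs 4 were lower and 1 higher, with a median of -0.42. Glul, glutamine synthetase of the hepatocytes around the central vein, fell from 106.1 to 43.3 CPM (hashtag 1) and from 60.4 to 38.2 CPM (hashtag 2), a fold change of -0.91 ± 0.13 (edgeR adjusted p = 1.61e-05). Rgn, regucalcin, was at 619.8 and 129.9 CPM (hashtag 1) and at 220.6 and 88.2 CPM (hashtag 2), a fold of -1.79 that was not called (edgeR adjusted p = 0.140). Aldh1a1 was at 315.9 and 335.9 CPM and at 272.7 and 319.4 CPM and was not called.

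Of 24 cytochrome P450 genes tested, 13 fell and 0 rose, with a median of -0.86. With depth matched, 4 of 23 were called lower and the median was -0.58. Cyp2c70, which makes muricholic acids, fell from 199.2 to 90.8 CPM (hashtag 1) and from 211.3 to 111.8 CPM (hashtag 2), a fold change of -1.03 ± 0.11 (edgeR adjusted p = 3.11e-08). Cyp2d26 and Cyp3a25 fell by 0.77 and 0.97. Members of the Cyp2c, Cyp2d and Cyp3a families have close copies, so single members are less certain than the list. Of 17 transporters, 4 fell and 0 rose, with a median of -0.37, and 1 was called lower with depth matched. Among the 4 were Slco1b2, Slc10a1 (the bile salt importer) and Abcb11 (the bile salt export pump), the last from 43.0 to 22.2 CPM and from 50.2 to 32.2 CPM.

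Secreted proteins fell in part. Of 18 apolipoproteins and lipid export genes, 10 fell and 1 rose, with a median of -0.62. With depth matched, 4 were called lower and the median was -0.42. Apoc3, which slows triglyceride clearance, fell from 2293 to 1502 CPM (hashtag 1) and from 3003 to 1663 CPM (hashtag 2), a fold change of -0.76 ± 0.08 (edgeR adjusted p = 1.07e-07). Apoe, the most abundant of the list, was at 22830 and 24390 CPM and at 28640 and 25210 CPM and was not called. The riser was Angptl4, an inhibitor of lipoprotein lipase, from 18.6 to 24.3 CPM and from 19.1 to 37.4 CPM.

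Of 35 complement and coagulation genes, 15 fell and 0 rose, with a median of -0.46 and every tested member below 0. With depth matched, 5 were called lower and the median was -0.34. In the fit with at least 1 cell per sum and without hashtag 2, 0 were called and the median was 0.06. Mbl2, a lectin that starts complement, fell from 655.9 to 350.7 CPM (hashtag 1) and from 776.1 to 432.9 CPM (hashtag 2), a fold change of -0.89 ± 0.10 (edgeR adjusted p = 8.76e-08). Of 24 acute phase and iron genes, 4 fell and 0 rose, with a median of -0.29, and 2 were called lower with depth matched. Hamp, hepcidin, fell from 845.7 to 408.8 CPM and from 1169 to 742.7 CPM, whereas Trf, transferrin, was at 11220 and 12400 CPM and at 13150 and 12940 CPM and was not called.

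In the insulin-like growth factor list, 1 of 13 rose and 4 fell, and with depth matched 0 were called higher and 2 lower. Igf1 fell from 188.7 to 114.1 CPM (hashtag 1) and from 191.7 to 102.2 CPM (hashtag 2), a fold change of -0.86 ± 0.11 (edgeR adjusted p = 9.03e-07), and its carrier subunit Igfals fell by 1.17. Ghr, the growth hormone receptor, fell by 0.54. Igfbp3 was the riser, and Igfbp1 was at 689.1 and 1609 CPM and at 1002 and 1941 CPM, higher in low cells of both mice but not called (edgeR adjusted p = 0.347).

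Of 22 genes of fatty acid oxidation and peroxisomes, 9 fell and 0 rose, with a median of -0.39. With depth matched, 1 of 21 was called lower and the median was -0.28. Acaa2, a thiolase of mitochondrial beta-oxidation, fell from 545.3 to 288.9 CPM (hashtag 1) and from 364.6 to 260.7 CPM (hashtag 2), a fold change of -0.71 ± 0.10 (edgeR adjusted p = 6.06e-06). Cholesterol synthesis and uptake genes gave 0 calls of 22, with a median of -0.12. Of 36 nuclear genes of oxidative phosphorylation, only Uqcrq was called (lower). In glycolysis, Pkm, the pyruvate kinase of dividing cells, rose from 59.6 to 107.2 CPM and from 48.4 to 89.6 CPM (1 of 21 tested), and 3 fell, among them Slc2a2, the liver glucose transporter.

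Ribosomal proteins and the genes that build ribosomes serve growth. Of 50 cytosolic ribosomal proteins, 2 rose (Rpsa and Rpl14) and 0 fell, beside 3.05% of all genes called higher, and all 50 had a fold above 0, with a median of 0.16. Of 30 genes of MYC and ribosome biogenesis, 2 rose and 0 fell, with a median of 0.18. With depth matched, 0 of either list were called. Myc itself rose from 14.1 to 28.5 CPM (hashtag 1) and from 16.7 to 24.2 CPM (hashtag 2), a fold change of 0.61 ± 0.16 (edgeR adjusted p = 0.00984). In the glutathione list Slc7a11, the cystine importer, rose by 1.08, Gsta4 rose by 0.51, and Gsta3, Gstm1 and Gstm3 fell. Of 14 heat shock genes 1 rose (Hspb1), and of 21 genes of the integrated stress response 1 rose (Psat1) and 2 fell (Atf5 and Shmt2). Of all genes tested, 3.05% were called higher and 3.77% lower, so these few calls are not read as a result about the lists.

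**Figure D3:**
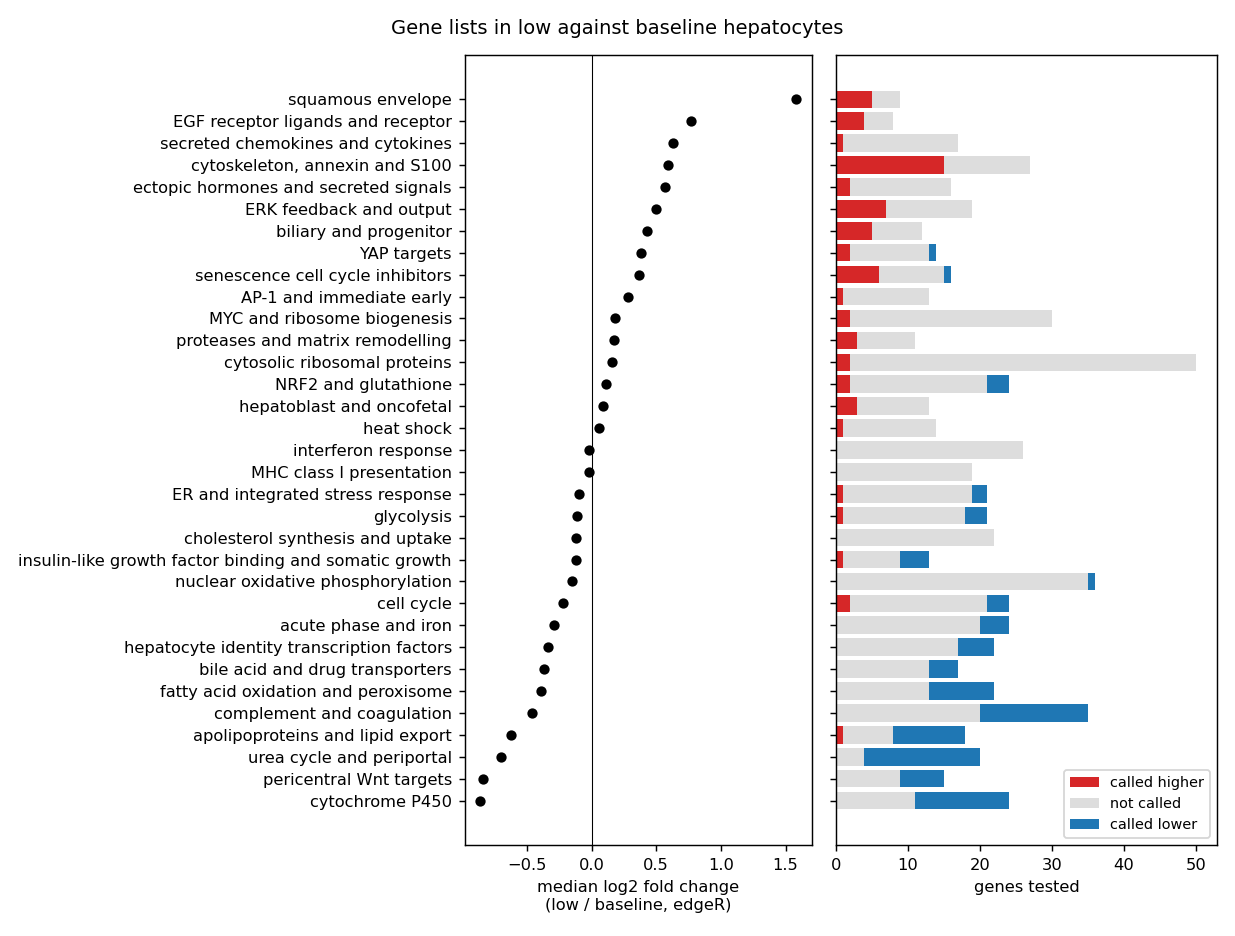
Left, the median log2 fold change of low over baseline (edgeR) of the genes tested in each list. Right, the number of genes in each list called higher (red), called lower (blue) or not called (grey), from squamous envelope genes at 1.58 to cytochrome P450 genes at -0.86.

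Low cells mostly stood on the way from baseline to the cells with 800 CPM or more. Of the 335 genes called higher, 314 were higher again in the cells with 800 CPM or more, and of the 414 called lower, 412 were lower again. The same share was not counted over all genes tested. The low group was also split at 300 CPM, a limit chosen after the data were seen, with no test. The 254 cells from 150 to under 300 CPM and the 208 cells from 300 to under 800 CPM differed in median depth, at 40500 and 47670 UMIs. Of the 335 higher genes, 281 were higher in the upper than in the lower of these ranges, and of the 414 lower genes 392 were lower, while of all genes tested 3713 were higher and 7275 lower. In the pooled cells 334 of the 335 higher genes were above baseline in the lower range, beside 7226 of the 10988 genes tested. The lower range is part of the low group by which these genes were called, so that count is largely set by the call. In hashtag 1, with 17 cells in the lower and 21 in the upper range, 261 were above and 69 below baseline in the lower range. Of all genes tested, 5728 were above and 5238 below there. There Plaur stood at 6.80 CPM beside 8.31 in baseline, Wincr1 at 19.04 beside 24.7, Ankrd1 at 5.44 beside 11.6 and Il1rn at 17.7 beside 19.7, so in that mouse these genes were below baseline in the lower range and above it in the upper.

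The cells of the low group were far from uniform. Spp1 in hashtag 2 had a median of 696.3 CPM per low cell, with quartiles at 109.2 and 8595 CPM, and the baseline quartiles were 86.3 and 1268 CPM. Sprr1a had no UMI in 60.4% of baseline and 35.9% of low cells of hashtag 2, with a median of 33.5 CPM in low cells and an upper quartile of 303.3 CPM. Anxa2, which was more abundant, had quartiles of 155.2 and 509.0 CPM in low and of 92.2 and 273.2 CPM in baseline cells. Vtn, vitronectin, had a median of 430.4 CPM in low and 1050 CPM in baseline cells of hashtag 2.

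**Figure D4:**
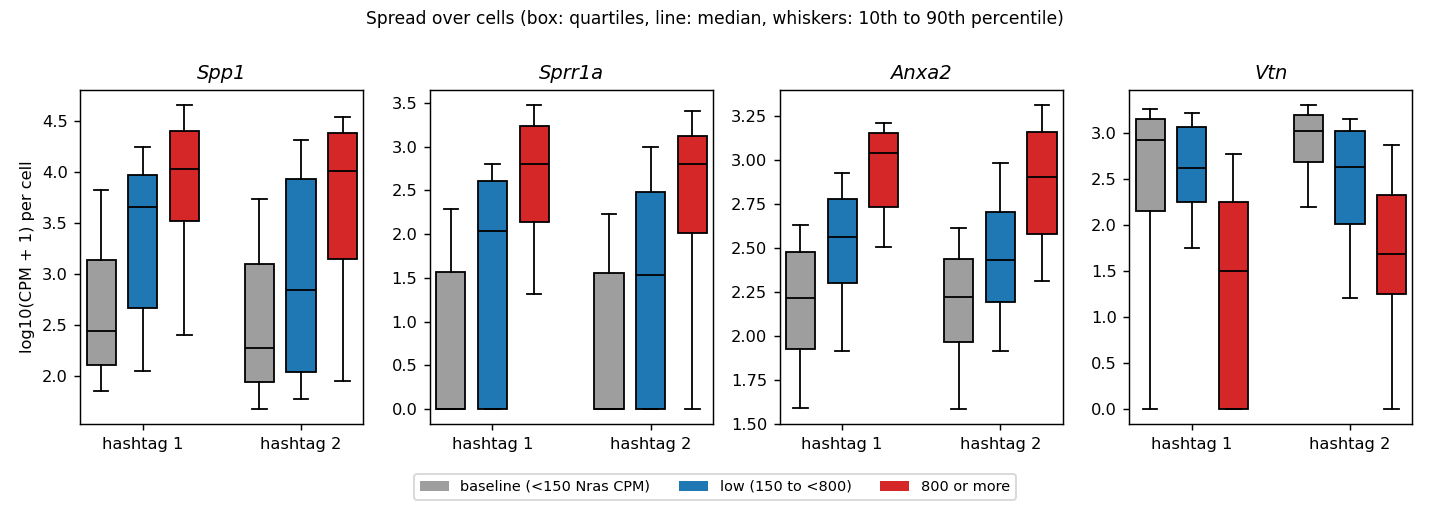
Log10(CPM + 1) per cell of Spp1, Sprr1a, Anxa2 and Vtn in the 3 Nras groups of hashtags 1 and 2, with boxes from quartile to quartile, a line at the median and whiskers from the 10th to the 90th percentile. The boxes of low and baseline cells overlap for every gene, and low cells spread widely in Spp1.

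Whether low cells lie off the line between their neighbours was asked by testing them against the midpoint of baseline and 800 CPM or more on the log scale. Of 10988 genes 33 were called (0.3%), of which 32 lay above the midpoint (0.291%) and 1 below (0.0091%). The count rests on where the groups were drawn. With 200 to under 800 CPM against under 100 CPM it was 1, and with no block for the mouse it was 0, with 302 genes at an unadjusted p under 0.05.

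Most of the 32 were hepatocyte genes whose low level lay nearer to baseline than the midpoint on the log scale. This holds for logs of sums over cells. On the linear CPM scale a gene can lie on the other side of the midpoint, as Slco1b2 did in both mice. How far the spread over cells within a group enters these calls was not tested. Slco1b2 was called on both counts, at -1.40 against baseline and 0.79 ± 0.14 against the midpoint (edgeR adjusted p = 0.00434). G6pc, the last step of glucose release, went from 27.2 to 8.98 to 1.73 CPM (hashtag 1) and from 20.01 to 11.5 to 0.84 CPM (hashtag 2), a fold change of 1.17 ± 0.23 against the midpoint (edgeR adjusted p = 0.0107). Cyp2f2, a periportal cytochrome P450, went from 78.1 to 31.7 to 5.87 CPM and from 56.1 to 26.9 to 3.79 CPM (0.75 ± 0.14, edgeR adjusted p = 0.00527). Keg1 was the other named gene of this kind, at 0.90 ± 0.20. G6pc and Keg1 had few counts at 800 CPM or more, with 23 and 40 UMIs in all cells.

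Of the 20 urea cycle and periportal genes tested, 5 were above the midpoint, beside 0.291% of all genes. Ugt2b5 and Saa1, both called above the midpoint, were chosen after their values were seen. Ugt2b5, a glucuronosyltransferase with close copies, was at 862.6, 729.4 and 301.4 CPM (hashtag 1) and at 937.3, 741.7 and 300.3 CPM (hashtag 2). Saa1, an acute phase protein, was at 3.88, 2.11 and 0.69 CPM (hashtag 1) and at 14.1, 16.9 and 0.67 CPM (hashtag 2), so it fell at each step in hashtag 1, from 14, 4 and 2 UMIs, and was above baseline in low cells of hashtag 2.

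Cxcl17, a mucosal chemokine, was higher in low than in baseline cells and not higher still beyond. It was at 4.43, 12.7 and 12.8 CPM (hashtag 1) and at 7.77, 22.7 and 20.2 CPM (hashtag 2), a fold change of 0.79 ± 0.16 against the midpoint (edgeR adjusted p = 0.0102). Krt19, a keratin of bile ducts, was at 0.0, 2.64 and 0.0 CPM (hashtag 1) and at 0.89, 5.97 and 2.45 CPM (hashtag 2), with 83 UMIs in all low cells (2.20 ± 0.41, edgeR adjusted p = 0.00825). S100a10, the partner of Anxa2, was the only gene below the midpoint, at 673.6, 752.6 and 1631 CPM (hashtag 1) and at 585.3, 835.1 and 1500 CPM (hashtag 2), a fold change of -0.34 ± 0.08 (edgeR adjusted p = 0.0283).

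**Figure D5:**
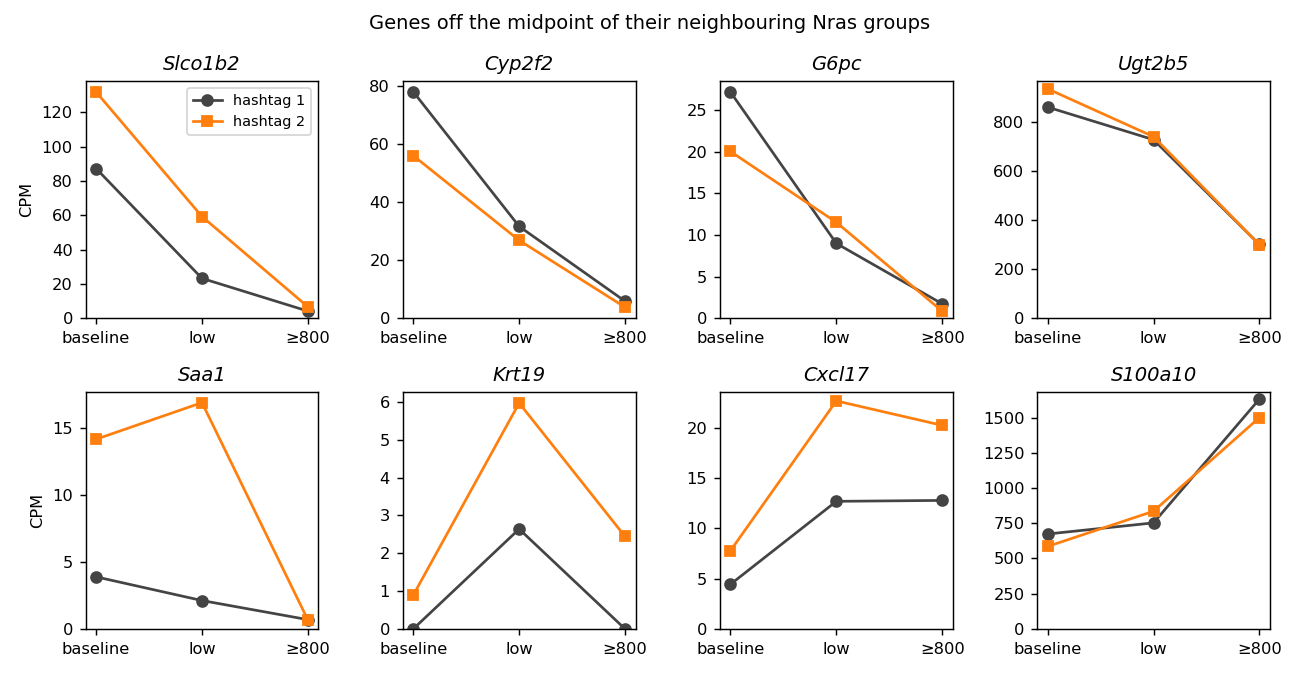
CPM of 8 genes called off the midpoint in baseline, low and 800 CPM or more (x axis) for hashtag 1 (grey circles) and hashtag 2 (orange squares), each panel from 0. The midpoint was tested on the log scale, whereas these axes are linear. Krt19 and Cxcl17 are highest or level in low cells, and S100a10 rises mainly beyond 800 CPM. Krt19 was found in only 1.52% of all low cells.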

How the data were processed

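Per the labels and the study's methods, the authors aligned 10x Genomics 3′ v3 reads to mm10 with Cell Ranger (version 2.1.1 in the submitters' processing notes, 3.0.2 in the matrix header) and deposited raw UMI counts per gene and barcode for 13151 barcodes (142072118 gene UMIs), beside a hashtag count table made with CITE-seq-Count, which shared 13141 barcodes. The pool was loaded on 2 lanes that the barcodes do not tell apart.

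Hashtags were called with HTODemux (Seurat 5.3.0, quantile 0.99). Doublets within a mouse were not removed. UMIs were summed per mouse and Nras group, leaving out sums of fewer than 10 cells. Nras, mVenus, the 9 gate genes and the 13 mt- genes were left out of the tests. Genes passing filterByExpr were tested with edgeR 4.0.16 (TMM, robust quasi-likelihood) with a mouse block, called at adjusted p under 0.05, and with DESeq2 1.42.0 as an alternative. The same-animal sums were paired: their deviations from the group means correlated at 0.28 for baseline and low, and at 0.10 and 0.09 for the pairs with 800 CPM or more. Ratios per library are log2 of (CPM + 1).

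On simulated counts for low against baseline (10870 genes), 93% of genes changed 2-fold and 100% of those changed 4-fold were recovered, with 7 false calls. The simulation had no difference between the mice, no shift at 800 CPM or more and the same spread for every gene. Only genes with enough expected counts in every sum were changed. These shares therefore check the fit and do not measure its power or false calls in the real data. Named genes were the 12 largest rises and falls (5 for the midpoint) at 20 CPM or more and changed in the same direction in both mice, plus the 4 genes of a list with the most UMIs or the lowest p. Genes of 43 lists were described by counts and medians. Called list genes outside this rule, such as Cps1, Cdkn2c, Nr1h4 and Angptl4, and Ecm1, Epcam and Vtn were named after their values were seen. The members and lists were chosen with earlier results of these data known. Promoter windows were found for 20 of 24 named genes. Sums count molecules, so their precision covers counting and mouse spread only over 2 mice. Values of a few list genes are not reported here.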

Additional observations from a re-analysis of the deposited data

Results flagged for a closer look

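Hashtag 3 went against the other mice. Of the 749 genes called in low against baseline, 461 had the opposite sign in hashtag 3, 245 the same sign and 43 were equal, beside 4593 of 10988 genes tested with the same sign (41.8%). These ratios rest on 4 low and 16 baseline cells with median depths of 17060 and 14750 UMIs, and the difference between the mice was not tested. The baseline cells of hashtag 3 had a median of 0.181% of UMIs in markers of other cell types, against 0.0459% in hashtag 2, and 3.84% mitochondrial UMIs against 9.01%. The part of these values in the opposite signs was not tested.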

How the results depend on the processing

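Against 749 calls in low against baseline, DESeq2 called 311 genes (290 shared), the fit with at least 1 cell per sum 423, matched depth 137 and under 10% mitochondrial UMIs 476. Without the replicate block, although the sums of an animal are paired, edgeR called 240 genes. The other settings gave 576 to 1095 calls. All of these settings kept the direction of at least 98.9% of the calls they tested. Admitting sums of at least 1 cell and leaving out each mouse in turn gave from 6 to 749 calls (30 without hashtag 1). Against 33 midpoint calls, DESeq2 gave 10, no filter on low counts 101, the rule of 80% from 1 tag 58, matched depth 8, under 10% mitochondrial UMIs 16, the limits of 200 and 100 Nras CPM 1 and no replicate block 0, and leaving out each mouse gave from 10 to 33 (18 without hashtag 1). For the named genes, 93 of 432 low against baseline values and 49 of 90 midpoint values were no longer past the threshold, and none changed sign. The 432 include fold changes within each mouse, which have no p-value and could not fall short of the threshold. Named genes were chosen to change in the same direction in both mice, so these within-mouse values could not change sign. Both totals also include a fit that repeats the main calls (749 and 33). The cause of the differences between settings was not tested, except that fits with fewer cells or mice hold fewer counts. Leaving a mouse out of the fit with 2 mice leaves no residual degrees of freedom, so there only fold changes within each mouse are given.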
